A study of Mus musculus with 6 samples.

Results

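Genes of the endoplasmic reticulum (ER) stress response were examined in the ovary of adult female rats. They were chosen by symbol as 32 genes, of which 31 had a row in the deposited table of 22487 genes and Mbtps2 was not analysed here. All 31 passed the filter on low values, a mean of at least 0.5 FPKM (the authors' level per transcript length and library depth) over the 6 libraries. They were divided by role into 12 ER chaperones and folding factors, 7 degradation genes, 7 genes of the ATF4 arm, and 5 sensors, proteases and related factors. RNA sequencing of whole ovary compared 3 libraries of rats labelled with cowshed PM2.5 exposure, which is fine airborne particulate matter from a cattle house, against 3 libraries of rats labelled with no treatment. All 6 samples carry the wild-type genotype label and 30 days in the title. The labels name no strain, dose, route of exposure or cycle stage, and do not say what the 30 days count or whether each library is an animal of its own. The p-values therefore describe the spread among these 6 libraries, which may be technical. The organism field names the mouse, whereas the titles name the rat and the table's gene identifiers are those of the rat, which is the species used here.

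Secreted and membrane proteins fold in the ER with the help of chaperones such as BiP, and proteins that fail to fold are drawn back into the cytosol and degraded. When unfolded proteins accumulate, the sensors IRE1, PERK and ATF6 signal to the nucleus. IRE1 splices the Xbp1 messenger RNA, ATF6 is cut free by the site-1 and site-2 proteases, and both raise chaperone and degradation genes. PERK slows translation by phosphorylating eIF2 alpha and thereby favours translation of ATF4, which drives genes of amino acid supply, redox defence and, through CHOP, cell death. Other eIF2 kinases feed into ATF4 as well, so that arm also answers to stresses outside the ER. In the ovary, follicular and luteal cells secrete hormones and matrix and carry a large ER. Gene-level counts show neither the splicing of Xbp1 nor the translation of Atf4 nor the cutting of ATF6.

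The libraries held 49554241 to 60749578 counts in the PM2.5 group and 47662338 to 51530427 in the controls. Ovarian identity was checked from markers, and all 7 granulosa, 3 theca, 4 luteal and 7 oocyte markers had counts. Summed levels of the granulosa and luteal markers differed between libraries within each group. Summed granulosa markers came to 3171, 8506 and 9484 CPM (counts scaled to a common library size) in PM2.5 libraries 1 to 3, against 7525, 5537 and 1491 CPM in controls 1 to 3. Summed luteal markers came to 13473, 5812 and 4870 CPM in PM2.5, against 7798, 8169 and 15982 CPM in controls. Not every marker followed its sum. Foxl2, of the granulosa list, varied little, at 47.5, 35.9 and 43.0 CPM in PM2.5 and 46.3, 35.1 and 40.6 CPM in controls. Lhcgr, of the luteal list, was lowest in control 3, at 81.2 CPM, where the luteal sum was highest. In whole tissue, fewer cells of a type and less RNA per cell cannot be told apart.

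The most abundant ER stress genes were chaperones. Calr, which encodes the calcium-binding lectin chaperone calreticulin, had 576 ± 30.5 FPKM in PM2.5 libraries and 485 ± 46.1 FPKM in controls (SD, n = 3 each, as for all means). Hspa5, which encodes BiP, followed with 386 ± 47.5 FPKM in PM2.5 and 332 ± 74.5 FPKM in controls, then the disulfide isomerase gene Pdia3 with 315 ± 5.43 and 274 ± 5.84 FPKM. Over the 6 libraries the values of Hspa5 spanned those of Pdia3, so that pair is not ordered beyond its spread. Atf4 was the most abundant member outside the chaperones, at 159 ± 3.57 FPKM in PM2.5 and 183 ± 27.9 FPKM in controls. At the low end stood Ern1, which encodes IRE1 alpha, with 2.22 ± 0.134 FPKM in PM2.5 and 2.19 ± 0.575 FPKM in controls, and Trib3, a pseudokinase gene induced by ATF4 and CHOP, with 0.994 ± 0.718 and 0.763 ± 0.194 FPKM.

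**Figure D1:**
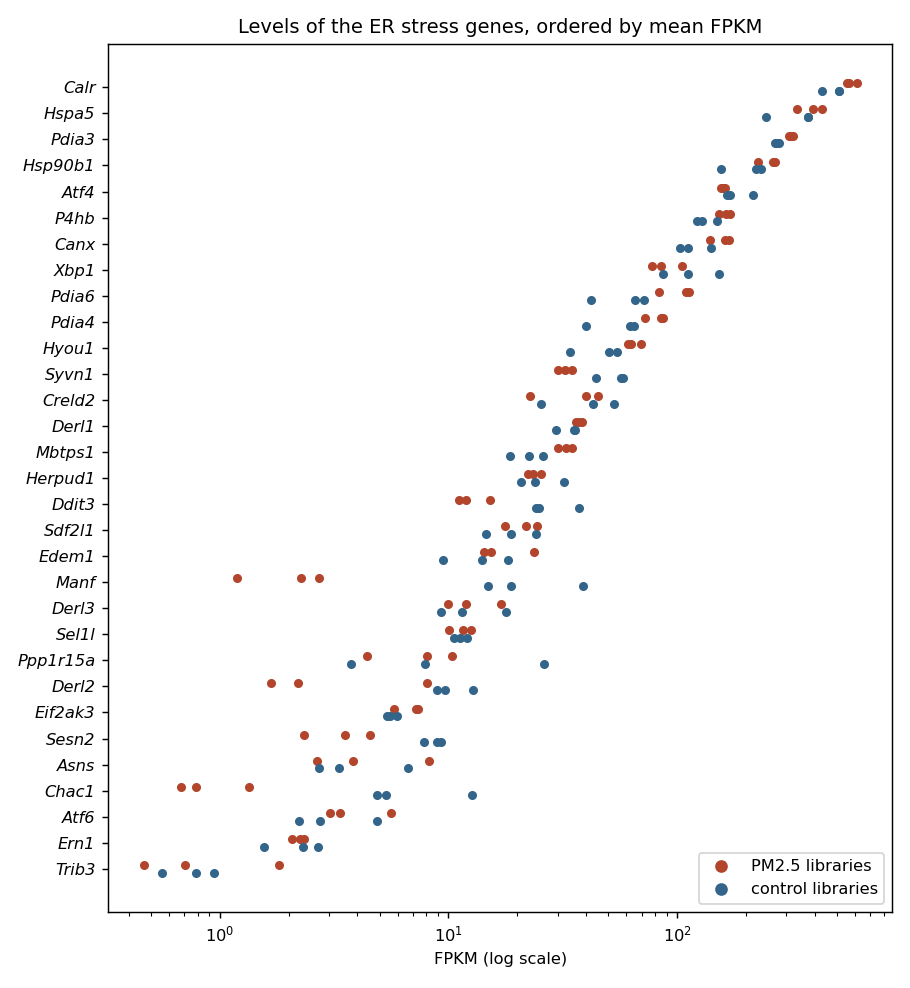
FPKM of each ER stress gene on a log axis, with red points for the 3 PM2.5 libraries and blue points for the 3 control libraries, ordered by the mean over all 6. Calr stands at the top and Trib3 at the bottom, and the red points of Manf, Chac1, Sesn2 and Ddit3 lie to the left of the blue ones.

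The arms were described by counts of their genes, with no test of an arm as a whole. Most chaperones were a little higher in PM2.5 libraries, 4 of the 7 ATF4 arm genes had all PM2.5 libraries below all controls, and the degradation genes were spread around no difference except for Syvn1 and Derl2. Of the 31 genes, 1 fell and none rose at an adjusted p below 0.05 (edgeR's quasi-likelihood test, adjusted by Benjamini-Hochberg across the 15303 genes tested). Across all genes tested, 0.928% passed in that test, 0.738% lower and 0.19% higher. The member that fell was Manf, whose row lies inside a more abundant gene on the same strand. Without adjustment, 5 members had p below 0.05 and were higher and 6 were lower, where 9.17% of all genes tested were higher and 11.7% lower. DESeq2, which makes many more calls on these libraries, called 7 of the 31 members against 11.5% of all genes (4.78% higher and 6.77% lower), with Pdia6 and Mbtps1 higher and Chac1, Ddit3, Manf, Sesn2 and Syvn1 lower.

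Median log2 fold changes of PM2.5 over control were 0.26 for the chaperones, 0.0030 for the degradation genes, -0.70 for the ATF4 arm and 0.26 for the sensors and proteases, against 0.0041 over all genes tested. The signs were positive for 10 of 12 chaperones, 4 of 7 degradation genes, 2 of 7 ATF4 arm genes and 4 of 5 sensors and proteases. The groups of libraries did not overlap for 16 of the 31 members, where they were apart for 27.2% of all genes tested. They were apart with PM2.5 higher for 8 of the 12 chaperones and for 1 of the 5 sensors and proteases, where 12.1% of all genes tested were so placed. They were apart with PM2.5 lower for 1 chaperone, 2 degradation genes and 4 ATF4 arm genes, where the share over all genes was 15.2%. The ATF4 arm median was the value of Ppp1r15a, the middle gene of the 7, which varied widely among controls. It was -0.11 without control 2, -1.12 without control 3, and -0.28 when genes lying inside another gene were counted with that gene, which for Ppp1r15a was the more abundant Nucb1.

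**Figure D2:**
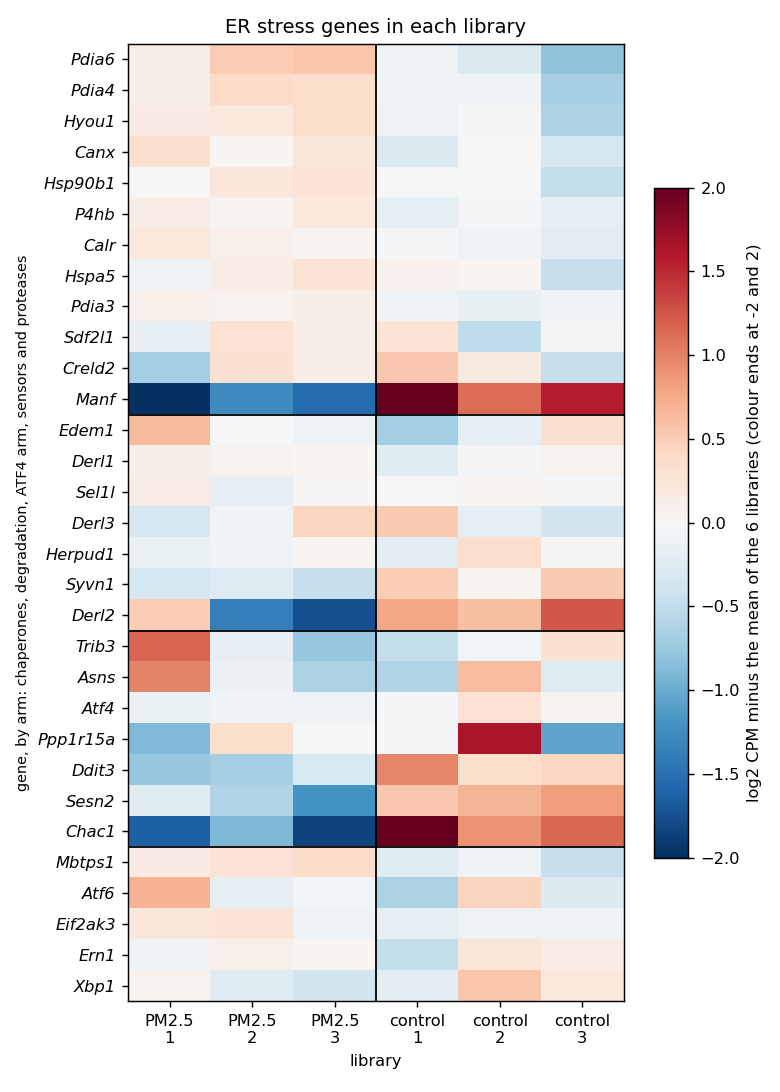
Log2 CPM of each ER stress gene in each library, minus its mean over the 6 libraries, with PM2.5 libraries on the left, controls on the right and the arms separated by lines. Chaperone rows are mostly pale red on the left with control 3 the bluest column, whereas Manf, Derl2, Ddit3, Sesn2 and Chac1 differ by more.

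**Figure D3:**
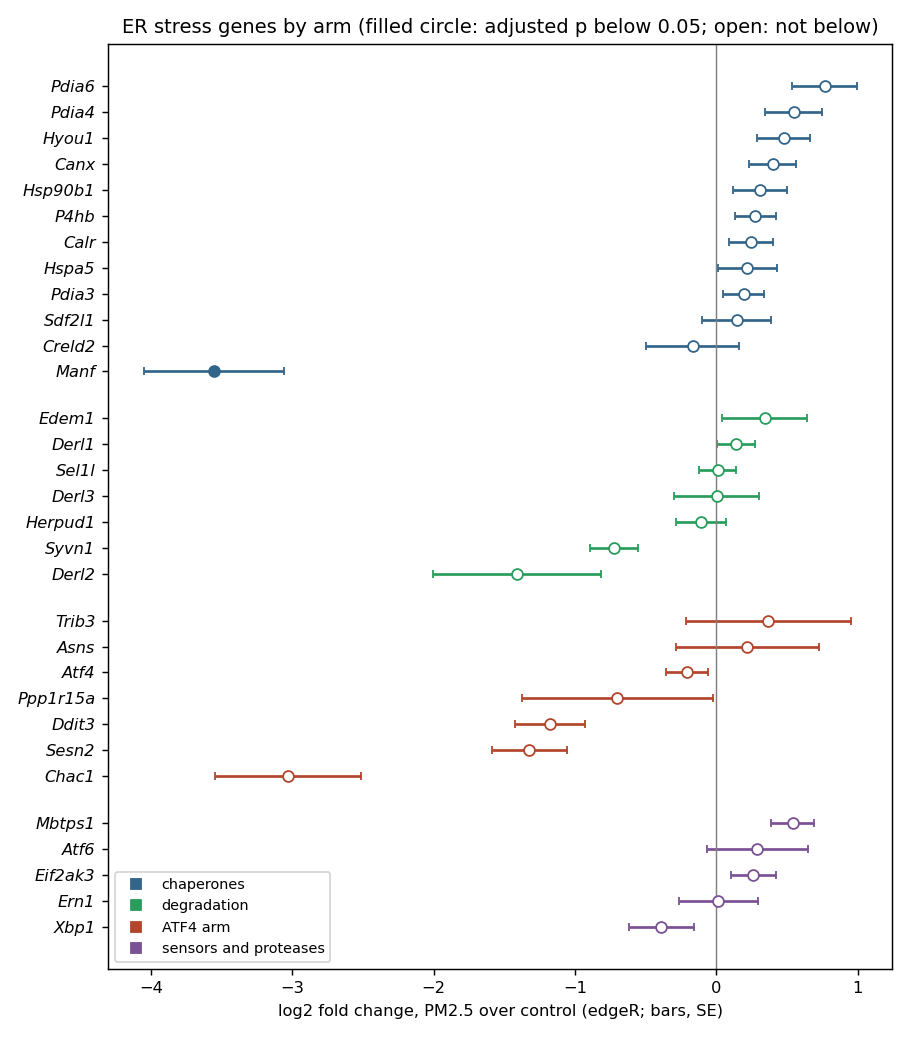
Log2 fold changes of PM2.5 over control with their SE from edgeR's quasi-likelihood test, by arm and sorted within each arm. Manf is the filled circle, the gene with an adjusted p below 0.05, and Chac1 is the next lowest at -3.03.

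Among the chaperones, the largest positive log2 fold changes were those of Pdia6 and Pdia4, isomerases that form and rearrange disulfide bonds, and of Hyou1. Pdia6 had 298, 389 and 402 CPM in PM2.5 libraries 1 to 3, against 258, 225 and 157 CPM in controls 1 to 3. All 3 PM2.5 values lay above the controls, with a log2 fold change of 0.77 ± 0.23 (SE), which did not pass in edgeR's quasi-likelihood test (adjusted p = 0.141). Pdia4 had 229, 275 and 269 CPM in PM2.5 and 198, 198 and 132 CPM in controls, a log2 fold change of 0.55 ± 0.20. Hyou1, which encodes a large chaperone that exchanges nucleotide on BiP, had 303, 313 and 345 CPM in PM2.5, against 251, 263 and 176 CPM in controls, at 0.48 ± 0.19. Neither Pdia4 nor Hyou1 passed (edgeR's quasi-likelihood adjusted p = 0.193 and 0.22), although the groups did not overlap in either.

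The abundant chaperones differed less. Hspa5, the usual readout of ER stress, had 965, 1134 and 1235 CPM in PM2.5 libraries, against 1083, 1044 and 740 CPM in controls. The groups overlapped, and the log2 fold change of 0.22 ± 0.21 was about the size of its SE (edgeR's quasi-likelihood adjusted p = 0.582). Calr had 1356, 1259 and 1226 CPM in PM2.5 and 1143, 1095 and 1002 CPM in controls, a log2 fold change of 0.25 ± 0.15 with groups apart (edgeR's quasi-likelihood adjusted p = 0.4). Canx, the membrane-bound partner of calreticulin, Hsp90b1, the ER member of the HSP90 family, and the disulfide isomerase genes P4hb and Pdia3 lay between 0.20 and 0.40 with groups apart and did not pass. Sdf2l1, which aids BiP, at 0.14 ± 0.25, and Creld2, an ER-stress-induced isomerase-like factor, at -0.17 ± 0.33, had overlapping groups. Control 3 was the lowest library for 8 of the 12 chaperones, and also for 5 of the 7 granulosa and 7 of the 7 oocyte markers. Over the 15303 genes tested it was the lowest for 3917 and the highest for 3749, more than any other library in both. The chaperone median was 0.21 without control 3, and the part of cell makeup in it was not tested.

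Manf encodes a small secreted protein that is retained in the ER with BiP and released under ER stress. Its row had 1.64, 3.76 and 3.10 CPM in PM2.5 libraries 1 to 3, against 53.3, 19.7 and 27.0 CPM in controls 1 to 3. Every PM2.5 library was below every control, and the log2 fold change was -3.56 ± 0.50 (edgeR's quasi-likelihood adjusted p = 0.0434), or 11.8-fold lower. The row covers chromosome 8 from 107548352 to 107551438 on the minus strand, in the coordinates of the table, whose genome build no source used here names. That span lies wholly within Rbm15b, an RNA-binding protein gene annotated on the same strand from 107525898 to 107551696, so strand cannot separate their reads. Rbm15b had 131, 173 and 183 CPM in PM2.5 and 156, 146 and 131 CPM in controls, with a log2 fold change of 0.17 ± 0.17.

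Counted together, Manf and Rbm15b had 132, 177 and 186 CPM in PM2.5 libraries, against 209, 166 and 158 CPM in controls. The groups then overlapped and the log2 fold change was -0.10 ± 0.19 (edgeR's quasi-likelihood adjusted p = 0.787), so that none of the 31 genes passed. Rbm15b had more CPM than Manf in every library, so most of each sum is Rbm15b and a change in Manf moves the sum less than its own row. In control 1, where Manf was highest, the sum was 209 CPM, against 156 CPM for Rbm15b alone. No source used here says how the counting divided reads between these rows. What passed the test was the Manf row, and the part of that division in its value was not tested. Of the 142 genes that changed in all, 3 (2.11%) lie inside another gene on the same strand, against 2.8% of genes tested. Leaving out any single library also ended the call of Manf, with log2 fold changes from -3.82 to -3.04 and edgeR's quasi-likelihood adjusted p from 0.0661 to 0.23. Few or no genes passed in any of those fits, so the loss is not particular to Manf. Its unadjusted p in edgeR's quasi-likelihood test stayed at or below 0.00101 in all of them.

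**Figure D4:**
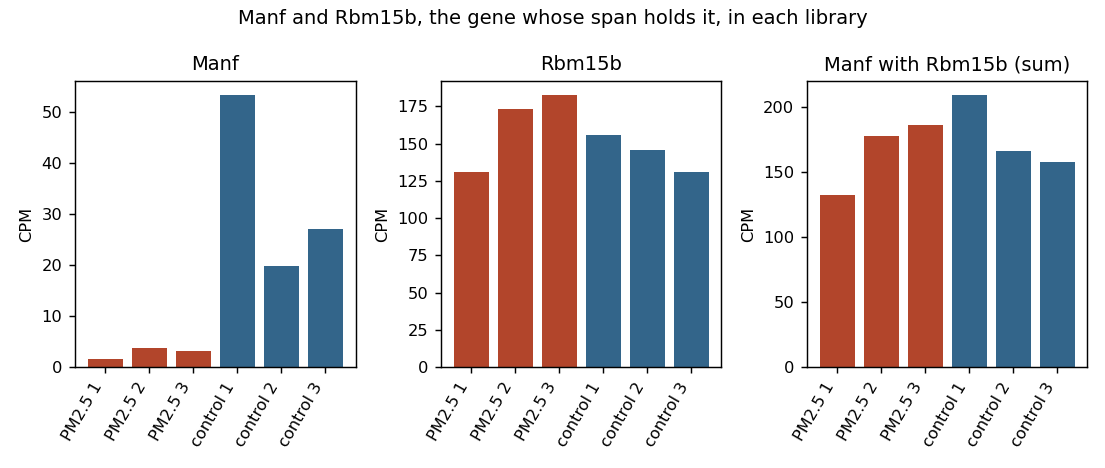
CPM in each library of Manf, of Rbm15b and of their sum, with red bars for PM2.5 and blue bars for control. The Manf bars are at most 3.76 CPM in PM2.5 and at least 19.7 CPM in controls, while the summed bars of the groups overlap.

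The degradation genes encode the machinery that recognises misfolded proteins, moves them across the ER membrane and marks them with ubiquitin. Syvn1, which encodes the ubiquitin ligase HRD1 at the centre of this machinery, had 110, 117 and 102 CPM in PM2.5 libraries, against 198, 145 and 201 CPM in controls. Every PM2.5 library was below every control, and the log2 fold change was -0.72 ± 0.17 (edgeR's quasi-likelihood adjusted p = 0.1). Syvn1 lies within the span of Mrpl49 on the opposite strand, and no source used here gives the strand setting of the counting. Counted with Mrpl49 the log2 fold change was -0.66 ± 0.16, and it did not pass either. Its partner Sel1l, the adaptor that holds HRD1 in place, had 89.8 ± 9.59 CPM in PM2.5 and 89.1 ± 2.30 CPM in controls, a log2 fold change of 0.011 ± 0.13.

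The derlins are membrane proteins of the same channel, and of the 3 genes Derl2 had the widest range. Derl2 had 33.4, 9.14 and 6.95 CPM in PM2.5 libraries 1 to 3, against 40.1, 35.9 and 55.7 CPM in controls 1 to 3. PM2.5 libraries 2 and 3 were several-fold below the controls and PM2.5 library 1 lay just under the lowest control, with a log2 fold change of -1.41 ± 0.59 (edgeR's quasi-likelihood adjusted p = 0.239). Without PM2.5 library 1 it was -2.44, which did not pass either. Derl1 had 129, 126 and 122 CPM in PM2.5 and 101, 116 and 126 CPM in controls, at 0.14 ± 0.13, and Derl3, a form induced through IRE1 and XBP1, had 28.9 ± 7.92 and 28.8 ± 9.86 CPM. Edem1, which picks misfolded glycoproteins for degradation, had 150, 97.8 and 90.6 CPM in PM2.5, against 60.7, 85.8 and 121 CPM in controls, with overlapping groups and a log2 fold change of 0.34 ± 0.30. Herpud1, a stress-induced member of the HRD1 complex, had 192 ± 12.5 CPM in PM2.5 and 207 ± 41.1 CPM in controls.

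In the ATF4 arm, 3 target genes were lower in every PM2.5 library than in the controls and close to the threshold. Chac1, which encodes an enzyme that breaks down glutathione, had 1.39, 2.34 and 1.19 CPM in PM2.5 libraries, against 22.4, 8.20 and 9.77 CPM in controls. Its log2 fold change of -3.03 ± 0.52 just missed the threshold (edgeR's quasi-likelihood adjusted p = 0.0557), and it passed with DESeq2 (adjusted p = 6.09e-07) and with limma on log2(FPKM + 0.1) (adjusted p = 0.043). Chac1 passed under no other setting tried. Sesn2, which encodes the stress-induced sestrin 2 that restrains mTORC1 and also answers to p53, had 17.9, 13.9 and 9.19 CPM in PM2.5, against 30.8, 33.8 and 38.0 CPM in controls. Its log2 fold change was -1.32 ± 0.27 (edgeR's quasi-likelihood adjusted p = 0.0733).

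Ddit3, which encodes CHOP, had 10.7, 11.4 and 14.6 CPM in PM2.5 libraries, against 35.8, 23.1 and 24.3 CPM in controls. The groups did not overlap, with a log2 fold change of -1.18 ± 0.25 (edgeR's quasi-likelihood adjusted p = 0.0805). With any single library left out, the adjusted p in edgeR's quasi-likelihood test reached 0.231 for Chac1, 0.29 for Sesn2 and 0.315 for Ddit3. Few or no genes of the whole table passed in those fits. Ddit3 overlaps Mars1 on the opposite strand by 60 bases at its end. Chac1 and Sesn2 overlap no other gene of the table.

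The Atf4 transcript itself differed little. It had 256, 268 and 262 CPM in PM2.5 libraries, against 272, 343 and 292 CPM in controls, which were apart by a small gap, with a log2 fold change of -0.21 ± 0.15 (edgeR's quasi-likelihood adjusted p = 0.448). The remaining ATF4 arm genes had overlapping groups. Asns, the asparagine synthetase gene, had 22.5, 10.4 and 7.27 CPM in PM2.5 and 7.49, 17.5 and 9.51 CPM in controls, and Trib3 had 3.76, 1.47 and 0.967 CPM in PM2.5, against 1.17, 1.58 and 2.04 CPM in controls. PM2.5 library 1 was the highest of the 6 for both genes. Ppp1r15a, which encodes GADD34, the phosphatase subunit that reverses eIF2 alpha phosphorylation, had 10.1, 24.0 and 18.6 CPM in PM2.5, against 18.2, 58.3 and 9.01 CPM in controls. Control 2 alone was high for Ppp1r15a, whose log2 fold change was -0.70 ± 0.67 and 0.37 without control 2. This gene lies inside Nucb1 on the same strand, and the pair counted together had a log2 fold change of -0.28 ± 0.19.

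**Figure D5:**
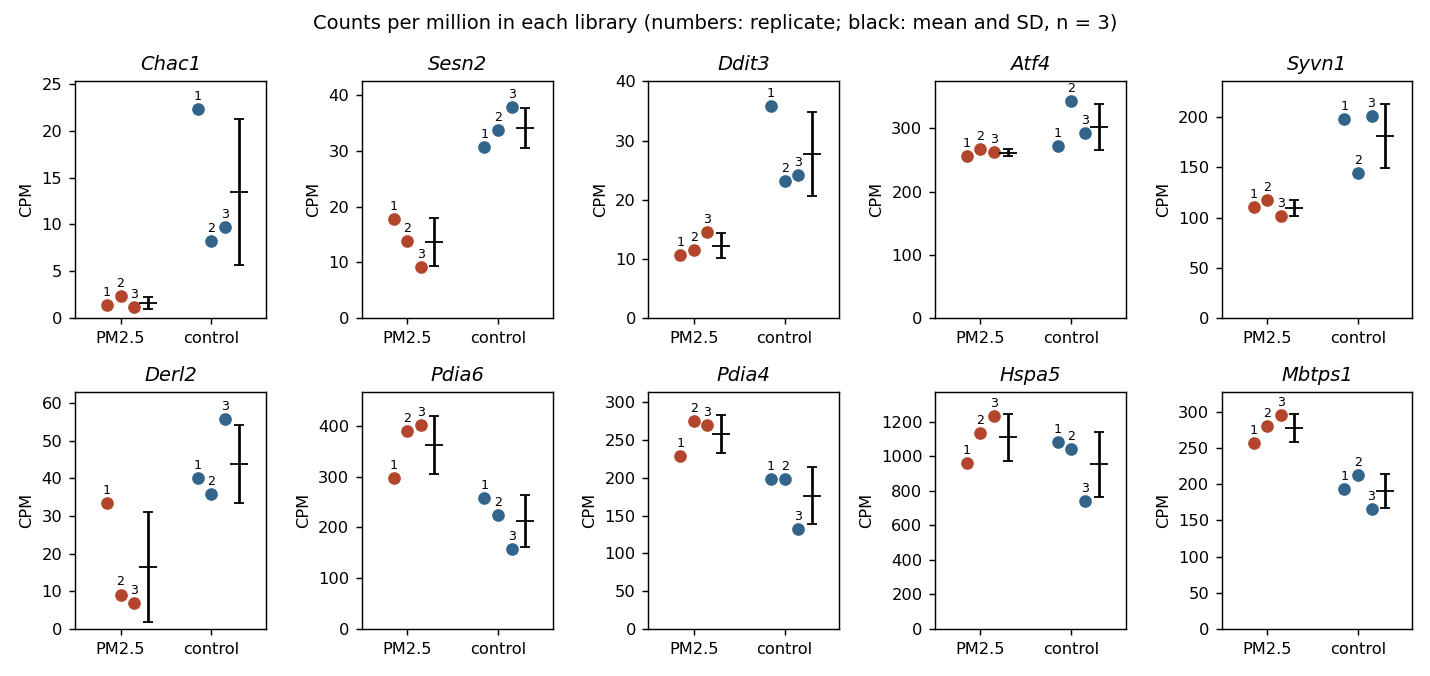
CPM of 10 ER stress genes in each library, with PM2.5 in red on the left and control in blue on the right, numbered by replicate, and the mean and SD of 3 libraries in black. Chac1, Sesn2, Ddit3, Syvn1 and Derl2 are lower and Pdia6, Pdia4 and Mbtps1 higher in every PM2.5 library, while Hspa5 overlaps.

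Immediate early genes, whose transcripts can rise within minutes of handling a tissue, also had lower means in PM2.5. This held for all 11 measured members of that list, with a median log2 fold change of -2.34, where 7594 of the 15303 genes tested were negative. Of the 11, Fos and Ier3 fell in edgeR's quasi-likelihood test, where 0.738% of all genes did. The groups were apart with PM2.5 lower for 8 of the 11, against 15.2% of all genes. Lower with an unadjusted p below 0.05 were 9 of the 11, against 11.7% of all genes tested. Fos had 26.8, 21.7 and 23.9 CPM in PM2.5 libraries, against 116, 286 and 110 CPM in controls. The summed level of the list was 1061, 610 and 658 CPM in PM2.5 libraries 1 to 3, against 1021, 4687 and 1527 CPM in controls 1 to 3, and the high sum of control 2 was mostly Egr1 and Nr4a1, at 1306 and 1488 CPM there. The part of the immediate early genes in these values was not tested.

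Among the sensors and proteases, Mbtps1, which encodes the site-1 protease that cuts ATF6, had 257, 280 and 295 CPM in PM2.5 libraries, against 193, 213 and 166 CPM in controls. Every PM2.5 library was above every control, with a log2 fold change of 0.54 ± 0.15 (edgeR's quasi-likelihood adjusted p = 0.132). Atf6 had 36.1, 19.6 and 21.6 CPM in PM2.5, against 14.4, 30.4 and 18.4 CPM in controls, which overlapped. Eif2ak3, which encodes PERK, had 36.3, 37.0 and 29.1 CPM in PM2.5 and 27.3, 28.9 and 29.2 CPM in controls, a log2 fold change of 0.26 ± 0.16. Ern1 had 8.89 ± 0.542 CPM in PM2.5 and 8.80 ± 2.21 CPM in controls, at 0.015 ± 0.28. Xbp1, the transcript that IRE1 splices, had 211, 170 and 155 CPM in PM2.5, against 174, 296 and 233 CPM in controls, with overlapping groups and a log2 fold change of -0.39 ± 0.23 (edgeR's quasi-likelihood adjusted p = 0.37).

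Further genes of each arm, listed apart from the 31, gave 114 tested genes, of which none passed in edgeR's quasi-likelihood test. Over all genes tested, 0.928% passed. Without adjustment, 12 of the 114 were higher and 11 lower at p below 0.05. Pooled over the lists, these counts lie near the shares over all genes tested, 9.17% higher and 11.7% lower, but the lists differed. Of 28 other ER folding and glycosylation genes, 21 had a positive log2 fold change, with a median of 0.23. The groups were apart with PM2.5 higher for 10 and lower for 1, where the shares over all genes were 12.1% and 15.2%. At an unadjusted p below 0.05, 4 were higher and 1 lower. Cnpy2, an ER-resident saposin-like protein gene, had 103, 104 and 103 CPM in PM2.5, against 84.1, 79.6 and 79.3 CPM in controls (edgeR's quasi-likelihood adjusted p = 0.159). Stt3a, a catalytic subunit of the enzyme that attaches sugar chains, was at 0.38 ± 0.15, and Ero1a, the oxidase that recharges disulfide isomerases, lay the other way at -0.82 ± 0.30. The 15 genes of import into the ER had a median of 0.016, with Sec11c, of the signal peptidase, at 0.65 ± 0.20, Ssr3, of the translocon-associated complex, at 0.57 ± 0.23 and Sec62, of the translocation machinery, at -0.35 ± 0.15. The 26 other degradation genes had a median of -0.021, with 13 of each sign, and those with the smallest p were the mannosidase gene Man1b1 at -0.40 ± 0.13, the lectin gene Erlec1 at 0.36 ± 0.12 and the ligase gene Marchf6 at -0.88 ± 0.31.

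Of 28 other ATF4 targets, 20 had a negative log2 fold change, with a median of -0.25. At an unadjusted p below 0.05, 6 were lower and 1 higher, where the shares over all genes tested were 11.7% and 9.17%. The groups were apart with PM2.5 lower for 7 and higher for 1, where the shares were 15.2% and 12.1%. Nupr1, a stress-induced chromatin protein gene, had 5.38, 15.0 and 24.7 CPM in PM2.5 libraries, against 87.6, 76.2 and 141 CPM in controls. The groups were far apart, with a log2 fold change of -2.75 ± 0.55 that did not pass (edgeR's quasi-likelihood adjusted p = 0.0724). Shmt2, the mitochondrial serine hydroxymethyltransferase gene, had 46.2, 38.9 and 46.6 CPM in PM2.5 and 73.9, 67.9 and 97.5 CPM in controls, at -0.86 ± 0.18. Cebpb, a transcription factor gene that many signals induce in the ovary, had 253, 212 and 175 CPM in PM2.5, against 323, 491 and 648 CPM in controls, at -1.19 ± 0.28. Of the 17 tested genes of other stress sensing and eIF2 control, 12 had a positive log2 fold change, with a median of 0.17. Ppp1r15b, the constitutive counterpart of GADD34, was at 0.42 ± 0.12, Eif2ak2, which encodes the RNA-activated kinase PKR, at 0.74 ± 0.22, and Rtcb, the ligase that joins Xbp1 exons after IRE1 cuts, at 0.34 ± 0.11.

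Markers of other cells were set beside these results, since plasma cells carry a large ER and express many of the same genes. Summed plasma cell markers came to 175, 157 and 169 CPM in PM2.5 libraries, against 524, 575 and 749 CPM in controls. Nearly all of this was Sdc1, a syndecan that epithelial cells express too, at 163, 151 and 165 CPM in PM2.5 and 508, 549 and 728 CPM in controls. Of the 8 markers, 5 had a lower and 3 a higher mean in PM2.5. Tnfrsf17 and Pou2af1 were at most 0.313 CPM in PM2.5 and 0.439 CPM in controls, and Mzb1 was at most 1.26 CPM in PM2.5 and 0.586 CPM in controls. Jchain was above these, at 3.76, 1.24 and 1.55 CPM in PM2.5 and 2.11, 4.75 and 2.75 CPM in controls, with overlapping groups. Tnfrsf13b had counts in PM2.5 library 1 alone, at 0.439 CPM. Sdc1 fell in edgeR's quasi-likelihood test (adjusted p = 0.0434), where 0.738% of all genes did. Like Sdc1, the transcription factor genes Prdm1 and Irf4 were lower in every PM2.5 library than in the controls. Prdm1 had 4.37, 2.54 and 1.87 CPM in PM2.5, against 10.9, 12.3 and 12.4 CPM in controls, with a log2 fold change of -2.02 (edgeR's quasi-likelihood adjusted p = 0.067). Irf4 had 1.35, 1.05 and 0.443 CPM in PM2.5 and 1.95, 7.43 and 4.67 CPM in controls. Summed erythroid markers were 2736 to 4267 CPM in PM2.5 and 784 to 1043 CPM in controls. The summed T and NK cell markers were 5.91 to 7.86 CPM in PM2.5 and 20.4 to 49.4 CPM in controls. Most of the control sum was Gzmb, at 0.858, 2.42 and 0.967 CPM in PM2.5 and 12.0, 20.4 and 43.0 CPM in controls. Gzmb fell as well (edgeR's quasi-likelihood adjusted p = 0.0486). Prf1 was also lower in every PM2.5 library, at 1.07, 0.379 and 0.806 CPM, against 2.05, 1.94 and 2.12 CPM in controls. The groups overlapped for Cd3d, Cd3e, Cd3g and Nkg7. Of the listed oviduct epithelium markers, Foxj1 and Ovgp1 were not analysed here, so their sum is that of Pax8 and Epcam alone. It was 146, 160 and 34.7 CPM in PM2.5, against 14.2, 30.4 and 3.61 CPM in controls. Whether these 2 transcripts come from oviduct was not tested. The part of these cells in the values of the ER stress genes was not tested.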

How the data were processed

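Per the file headers, the deposited table pairs a raw count with an FPKM value for every gene in each library. The count columns hold whole numbers, and the FPKM columns are the authors' scaling by transcript length and library depth. Per the submitters' processing notes, the tools were HISAT2 2.2.1, StringTie 2.1.6, cutadapt 1.9, edgeR and DESeq2, with no roles named. The build, the annotation and whether counting used strand are not given in the sources used. Per the labels' protocols, poly(A) RNA was copied with dUTP, which marks strand.

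Counts were tested with edgeR 4.0.16 in R 4.3.3 (TMM factors, glmQLFit, glmQLFTest, two-sided, Benjamini-Hochberg at 0.05) over the 15303 genes whose mean reached 0.5 FPKM. The SE is the log2 fold change divided by the square root of F. CPM values use the TMM factors. The script was tested on simulated data. Alternatives were other filters, median-of-ratios factors, DESeq2 1.42.0, limma 3.58.1 on log2(FPKM + 1) and log2(FPKM + 0.1), a replicate block, each library left out and, chosen after seeing the data, members counted with the gene they lie inside. The members and lists were chosen with earlier results of these data known. Values are given per library for each member with an adjusted p below 0.05 and, in each arm, the 4 with the smallest p and the 2 with the highest FPKM, with a few others chosen after their values were seen. From each further list the 3 genes with the smallest p are named. Libraries of a group differed by a chi-square of at least 112 per degree of freedom, more than counting noise, so none is a second deposit of another's counts. Separate preparations from 1 animal cannot be told apart from separate animals.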

Additional observations from a re-analysis of the deposited data

How the results depend on the processing

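The 142 genes changed became 1767 with DESeq2, 87 with filterByExpr of edgeR, 8 with no filter, and 0 to 7 when 1 library was dropped, where fewer samples entered. The members changed were 1, and were 0 without a filter, 7 with DESeq2, 2 with limma on log2(FPKM + 0.1), 0 with each library left out and 0 when counted with the gene they lie inside, where Manf with the more abundant Rbm15b had -0.10. With edgeR the fits that left out a library still gave 7 to 10 members, and 1898 to 3493 genes, with an unadjusted p below 0.05. Of all calls 20.4% were higher, but with DESeq2 41.4%. The ATF4 arm median of -0.70 was -0.35 with limma on log2(FPKM + 1), -0.36 on log2(FPKM + 0.1), -0.28 when counted with the gene they lie inside and -1.12 to -0.11 over the fits that each dropped 1 library. The same range was -0.16 to 0.058 for the degradation genes, 0.065 to 0.37 for the sensors and proteases, and 0.21 to 0.33 for the chaperones. The cause of these differences was not tested where none is named.

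The same-numbered libraries deviated together with correlations of -0.177, 0.162 and 0.0932, so their pairing is not shown. With the replicate block, 1 gene and 0 members changed, 8 members had an unadjusted p below 0.05, and the ATF4 arm median was -0.39.

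Of 464 values for single members under these settings, 432 kept their direction and side of the threshold, 9 lost a call, all of Manf, 7 gained one and 16 changed sign, none of them called. With a mean of at least 1 FPKM, Derl3 had -0.00037. With a library left out, log2 fold changes ranged from -0.39 to 0.086 for Creld2, -0.061 to 0.093 for Sel1l, -0.39 to 0.71 for Trib3, -0.38 to 0.66 for Asns, -0.032 to 0.65 for Atf6, -0.18 to 0.15 for Ern1, -0.23 to 0.32 for Derl3, -0.038 to 0.34 for Sdf2l1, -0.23 to 0.053 for Herpud1 and -1.12 to 0.37 for Ppp1r15a. Chac1, Manf and Trib3 had at most 2.34, 3.76 and 3.76 CPM in PM2.5, where relative counting error is larger than at high counts.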

Other observations

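Aminoacyl-tRNA synthetases, which load amino acids onto transfer RNA and which ATF4 is known to drive, were looked at together after their values had been seen, so no test is given. Of the 8 on the list of ATF4 targets, 7 had a negative log2 fold change, with a median of -0.26, and groups did not overlap for 3 of them, where 15.2% of all genes tested were lower and apart. Aars1, for alanine, was at -0.49 ± 0.14 and Nars1, for asparagine, at -0.36 ± 0.12, and neither passed (edgeR's quasi-likelihood adjusted p = 0.132 and 0.158). Eprs1, for glutamate and proline, lay the other way at 0.30 ± 0.17.

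Gpt2, the mitochondrial alanine aminotransferase gene and another ATF4 target, was split within the PM2.5 group. It had 68.2, 57.0 and 17.6 CPM in PM2.5 libraries 1 to 3, against 16.4, 17.7 and 18.4 CPM in controls 1 to 3. PM2.5 libraries 1 and 2 were also those with the highest sums of Pax8 and Epcam, 146 and 160 CPM, against 34.7 CPM in PM2.5 library 3. The adipocyte marker Adipoq had 33.3, 33.8 and 2.60 CPM in PM2.5 libraries 1 to 3, but Plin1, another adipocyte marker, was highest in PM2.5 library 3 of that group, at 1.53 CPM. Whether these are related was not tested.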
